A study of Solanum tuberosum with 10 samples.

Results

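Small nucleolar RNA (snoRNA) loci were examined in a time course of potato explants after ultrasound. A locus was taken as a snoRNA locus when the table of read counts lists it as a noncoding feature whose class name begins with sno or SNOR, or is Plant_U3. The rule found 82 of 40430 features. They comprise 48 loci of the Plant_U3 class and 34 loci of other snoRNA families, and they fall into 13 families. The rule reads names only, but the set was chosen for study with earlier results of these data known. A further 169 noncoding features are listed under the name of another feature and carry no class name, so any snoRNA locus among them is outside this set.

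The plants were in vitro potato (Solanum tuberosum, cultivar Desirée, with no transgene or mutation named). Explants were segments of stem with 1 node and 1 leaf, cut from plantlets 4 weeks old. Ultrasonicated explants received ultrasound in liquid Murashige and Skoog medium, 90 explants in 40 ml in a beaker of 50 ml, and control explants received none. Whether the controls were also immersed is not stated, so immersion and ultrasound cannot be told apart. Both arms were then grown on medium without growth regulators and sampled directly (0 h), after 24 h and 48 h, and after 1 week and 4 weeks. The tissue is labelled stem at 0 h and 24 h and stem with plantlet at the later times, so time, wounding, regrowth and tissue composition change together. RNA of 3 biological replicates was pooled for each arm and time, which gives 10 libraries with 1 library for each combination.

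snoRNAs are short RNAs of the nucleolus that work on ribosomal RNA. Most of the C/D box kind guide the methylation of ribose in ribosomal RNA, and those of the H/ACA box kind guide the conversion of uridine to pseudouridine. U3 is a C/D box RNA that guides no methylation: it pairs with the ribosomal RNA precursor and is needed for the early cleavages that release the RNA of the small ribosomal subunit. In plants, U3 genes are transcribed by RNA polymerase III, and many other snoRNAs are cut from transcripts that carry several snoRNAs in a row, whereas in animals most snoRNAs lie in introns. Mature snoRNAs carry no poly(A) tail. The libraries were made with a kit for mRNA, so the counts describe what such libraries retained, and whether they come from mature snoRNA, precursors or longer transcripts was not tested. In bulk samples, fewer cells that express a locus and less RNA per cell cannot be told apart.

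Depth was high for the transcriptome and low for snoRNAs. Total counts per library ran from 122786170 to 161153911. The 82 snoRNA loci together took 10797 counts, or 0.000787% of all counts. Levels are in CPM (counts relative to a library size that edgeR's TMM factor adjusts), with exact 95% Poisson intervals where an interval is printed. A floor of 3 counts, about the 1-sided 95% limit of a count of 0, corresponds to 0.0165 to 0.0312 CPM. The 2-sided interval of a count of 0 reaches higher, to 0.0326 CPM in the control library of 0 h, where the floor is 0.0265 CPM. Both libraries of 0 h, which enter every comparison with that time, had the lowest TMM factors, 0.688 in the ultrasonicated arm and 0.885 in the control arm. The share of ribosomal RNA features was 2.19% in the control library at 24 h and 0.0333% to 0.423% in the other 9. The gene RBCS-2C, which encodes the small subunit of Rubisco and marks green tissue, was present in all 10 libraries at 202.0 to 2063 CPM.

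Counts were recorded at 52 of the 82 snoRNA loci (63.4%), against 72.1% of all features. Among the other noncoding classes, 93 of 260 spliceosomal snRNA loci (35.8%), 22 of 50 signal recognition particle RNA loci (44.0%) and 33 of 523 tRNA loci (6.31%) had a count. Detection was sparse: 8 snoRNA loci had a count in all 10 libraries, 13 in a single library and 30 in none. The counts were also concentrated, with 27.9% of them at the leading locus, 54.6% at the leading 3 and 83.4% at the 12 loci of highest mean CPM. Counts were sufficient for testing (edgeR's filterByExpr) at 18 loci, of which 5 are Plant_U3 and 13 belong to other families. The filter also kept some loci and left out others at like levels: the lowest sum among the 18 was 115 counts and the highest among the 34 detected loci left untested was 158 counts.

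Within Plant_U3, detection went with annotated length. Of 30 loci of 200 bp or more, 21 had a count (70.0%), and together they held 5291 counts. Of 18 shorter loci, 4 had a count (22.2%), with 10 counts in all and no more than 5 at any locus. The 5 tested Plant_U3 loci were all in the longer group. The 200 bp limit was chosen after the lengths and counts had been seen, and the longest locus, at 324 bp, had 16 counts.

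**Figure D1:**
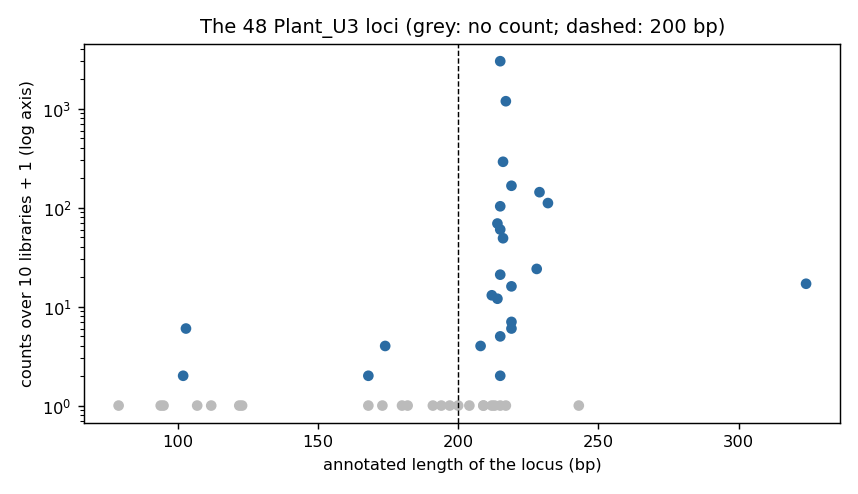
Each point is 1 of the 48 Plant_U3 loci, placed by annotated length in bp (x axis) and by counts summed over 10 libraries plus 1 (y axis, log scale); grey points have no count and the dashed line marks 200 bp. The loci with the most counts lie just above 200 bp, and the 4 shorter loci with a count have at most 5 counts each.

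The leading snoRNA locus was the Plant_U3 locus ENSRNA049462622, on chromosome 1 at 79022061 to 79022275 on the forward strand (215 bp), in coordinates of a build the table does not name. It overlaps no other listed feature. Its counts in the control libraries were 272, 46, 155, 525 and 517 in order of time. In the ultrasonicated libraries they were 414, 51, 128, 237 and 662. In both arms the locus was lowest at 24 h and next lowest at 48 h. At 1 week it was 1.52 times its level at 0 h in the control arm and 0.387 times in the ultrasonicated arm, and after 4 weeks 1.42 and 0.944 times. As levels, it went from 2.40 CPM (interval 2.13 to 2.71) to 0.384 CPM (0.281 to 0.513) in the control arm, a ratio of 0.160 (exact 95% interval 0.114 to 0.219, counting error only). In the ultrasonicated arm it went from 4.30 to 0.390 CPM, a ratio of 0.0907 (0.0665 to 0.122).

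This fall at 24 h was the only change against 0 h that passed edgeR's test at any snoRNA locus. With the arms standing in for replicates, the log2 fold change was -3.11 (SE 0.63, adjusted p = 0.0141, edgeR quasi-likelihood test with Benjamini-Hochberg adjustment over 24421 features), lower in 2 of 2 arms. The same locus passed the test over all times together (edgeR adjusted p = 0.0237). At 48 h the log2 fold change was -1.95 (SE 0.60, edgeR adjusted p = 0.0551), which missed the threshold; at 1 week and 4 weeks it was -0.33 (SE 0.59) and 0.16 (SE 0.58). The 48 h fall passed by DESeq2 (adjusted p = 0.00677) and by edgeR without the control library of 0 h (adjusted p = 0.0408) or the ultrasonicated one of 1 week (0.0491), in a range up to 0.259. The call at 24 h rests on both libraries of that time: without the control one the edgeR adjusted p was 0.102 and without the ultrasonicated one 0.101, with log2 fold changes of -3.07 and -3.15, and over all alternatives the adjusted p ran from 8.73e-06 to 0.102. The call over all times was lost without the control library of 24 h (edgeR adjusted p = 0.0973), 48 h (0.0712) or 4 weeks (0.0515), and without the ultrasonicated library of 24 h (0.1002), 48 h (0.0736) or 4 weeks (0.0639), within a range of 7.84e-06 to 0.1002. The green-tissue gene RBCS-2C was also lower at 24 h and 48 h than at 0 h in both arms, at 2063, 202.0, 273.0, 961.5 and 1311 CPM in the control libraries in order of time and 687.9, 357.0, 239.7, 1661 and 682.8 CPM in the ultrasonicated ones; the part of tissue composition in the fall of the Plant_U3 locus was not tested. Without the ultrasonicated library at 0 h, whose TMM factor was the lowest, the log2 fold change at 24 h was -2.58 (edgeR adjusted p = 0.0486).

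The second Plant_U3 locus was highest where the first was lowest. ENSRNA049461446, on chromosome 3 at 52114994 to 52115210 on the forward strand (217 bp), had 91, 250, 64, 86 and 78 counts in the control libraries from 0 h to 4 weeks. It had 27, 267, 97, 101 and 124 counts in the ultrasonicated libraries. The highest count of each arm was that at 24 h, and the arms were close to each other at that time (ratio 0.978, exact 95% interval 0.820 to 1.17). Against 0 h the 24 h level was 2.60 times as high in the control arm (2.04 to 3.34) and 7.28 times in the ultrasonicated arm (4.90 to 11.3), beyond counting error in both. Across arms the log2 fold change was 1.91 (SE 0.84, edgeR adjusted p = 0.147), so the rise did not pass the test.

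A group of 3 Plant_U3 loci on chromosome 6 (53241290 to 53245349, forward strand, 872 and 2521 bp apart) was also highest at 24 h in both arms. Its summed counts in the control libraries were 16, 167, 36, 8 and 63 from 0 h to 4 weeks, and in the ultrasonicated libraries 54, 111, 95, 8 and 6. Its middle member, ENSRNA049454161, had 0, 98, 17, 0 and 11 counts in the control arm and 23, 74, 53, 8 and 5 in the ultrasonicated arm. The log2 fold change of this locus at 24 h was 3.64 (SE 2.2, edgeR adjusted p = 0.278), a value that did not pass. Plant_U3 copies are close relatives, and how the authors' counting treated reads that fit several copies is not given, so counts cannot be assigned to a single copy with certainty.

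The summed level of all Plant_U3 loci was 3.51, 4.59, 1.92, 4.57 and 4.498 CPM in the control libraries from 0 h to 4 weeks and 5.60, 3.84, 2.75, 2.60 and 5.22 CPM in the ultrasonicated libraries. From 0 h to 24 h the summed level had a ratio of 1.31 (1.15 to 1.49) in the control arm and 0.686 (0.606 to 0.776) in the ultrasonicated arm. The arms thus differed in direction with TMM scaling. Scaled by total counts, the sum went from 3.106 to 4.479 CPM in the control arm and from 3.85 to 3.917 CPM in the ultrasonicated arm. The fall in the ultrasonicated arm therefore depends on the scaling. Without the leading locus, the TMM-scaled sum at 24 h was 3.81 times (3.13 to 4.67) and 2.66 times (2.18 to 3.27) that at 0 h, higher in both.

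The share of each locus in the Plant_U3 counts is given next; shares of a sum move against each other by construction. The chromosome 1 locus supplied 68.5%, 8.36%, 44.4%, 80.0% and 75.7% of Plant_U3 counts in the control libraries from 0 h to 4 weeks. In the ultrasonicated libraries it supplied 76.8%, 10.2%, 31.8%, 64.1% and 77.7%. It was the largest contributor in 8 of 10 libraries, the exceptions being those of 24 h. At 24 h the chromosome 3 locus supplied 45.5% (exact 95% interval 41.2 to 49.7) of Plant_U3 counts in the control arm and 53.2% (48.7 to 57.6) in the ultrasonicated arm, and the chromosome 6 group 30.4% and 22.1%. No test was made on these shares.

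**Figure D2:**
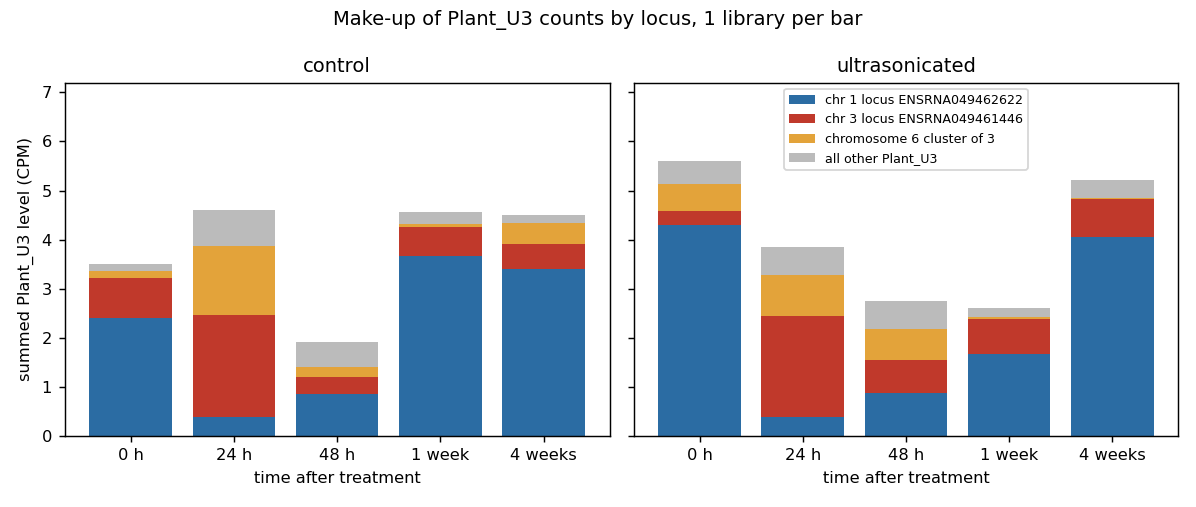
Stacked bars give the summed Plant_U3 level in CPM (y axis) in each of the 10 libraries by time (x axis), split into the chromosome 1 locus, the chromosome 3 locus, the chromosome 6 group of 3 and all other Plant_U3 loci. The chromosome 1 locus is at 0.384 and 0.390 CPM at 24 h, when the whole bars stand at 4.59 and 3.84 CPM, against 3.51 and 5.60 CPM at 0 h.

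The last of the chromosome 6 group and the remaining tested Plant_U3 locus were irregular. ENSRNA049462251, on chromosome 1 at 1623070 to 1623298, had 13, 0, 32, 0 and 0 counts in the control libraries from 0 h to 4 weeks and 17, 14, 24, 2 and 40 in the ultrasonicated libraries. ENSRNA049454179, the last of the chromosome 6 group, had 16, 24, 11, 8 and 52 counts in the control arm and 31, 10, 13, 0 and 0 in the ultrasonicated arm. Neither passed a test in any contrast, and both had libraries at 0 beside libraries of 40 or more counts. The other 43 Plant_U3 loci had 0 to 110 counts each over all libraries.

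Among the guide families, snoZ103, a C/D box family, led with 3704 counts, or 34.3% of all snoRNA counts. Nearly all of them (3474) came from an array of 6 snoZ103 loci within 2038 bp on chromosome 12 (57908648 to 57910685, forward strand), each 107 to 109 bp long. The gaps between neighbours are 87, 70, 207, 78 and 951 bp in the order of transcription. A paired fragment longer than a gap could touch both neighbours, and how such fragments were counted is not given.

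Levels rose along the array and then dropped. In the order of transcription, the summed counts of the 6 loci were 149, 287, 507, 810, 1700 and 21. The mean level over 10 libraries went from 0.0995 CPM at the first locus (ENSRNA049454947) to 1.21 CPM at the fifth (ENSRNA049454974), and was 0.0143 CPM at the sixth (ENSRNA049454887), which lies farthest from its neighbour. The loci are of nearly equal length, so these levels compare without correction for it. The fifth locus was the highest of the array in 9 of 10 libraries, the exception being the control library at 4 weeks, where the fourth locus (ENSRNA049454963) had 102 counts and the fifth had 48. The first was the lowest of the leading 5, or tied for it, in 8 libraries, and levels rose without a break from the first to the fifth in 4 libraries. Per kilobase, the mean level of the fifth locus (11.3 CPM per kb) was near that of the leading Plant_U3 locus (10.2 CPM per kb).

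**Figure D3:**
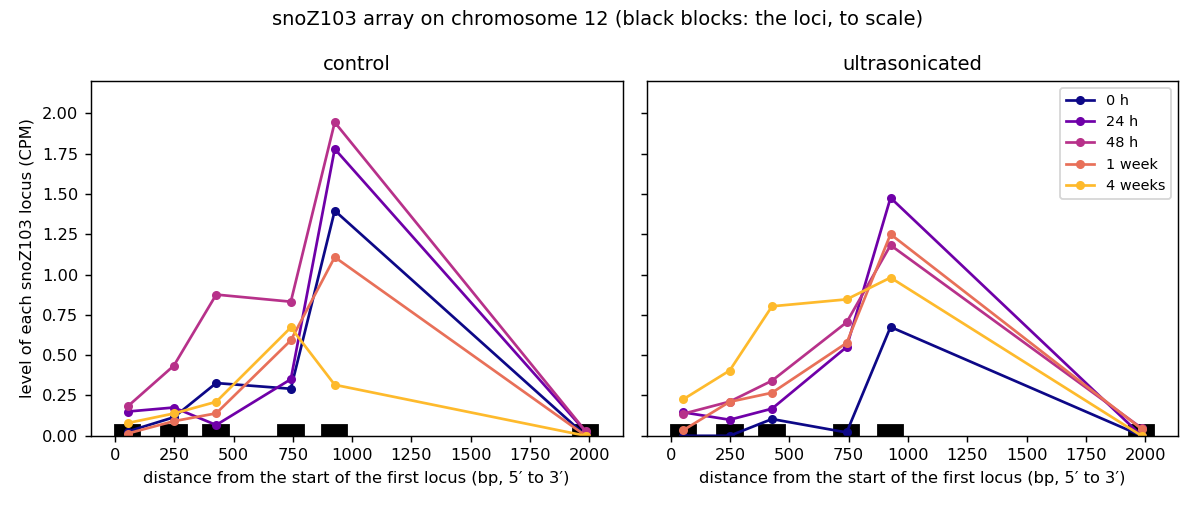
The level of each snoZ103 locus of the chromosome 12 array in CPM (y axis) against its distance in bp from the start of the first locus (x axis), with 1 line per library and black blocks for the loci to scale. Most lines climb to the fifth locus and end near 0 at the sixth, and the control line of 4 weeks peaks at the fourth.

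The share of the fifth locus in the array was lower at 4 weeks than at 0 h in both arms, without a steady fall between. In the control libraries the fifth locus held 64.8%, 69.8%, 45.3%, 57.0% and 22.3% of the array's counts from 0 h to 4 weeks, and in the ultrasonicated libraries 84.4%, 60.5%, 45.1%, 52.5% and 30.1%. The lowest share of each arm was that at 4 weeks, 22.3% (exact 95% interval 16.9 to 28.5) and 30.1% (26.2 to 34.2), outside the intervals at 0 h (58.4 to 70.7 and 74.4 to 91.7). These intervals cover counting error only, and no test was made of the shares.

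The fifth locus itself had 158, 213, 353, 159 and 48 counts in the control arm and 65, 193, 173, 178 and 160 in the ultrasonicated arm. Its log2 fold changes against 0 h lay between -0.64 and 0.66 with standard errors of 0.78 to 0.81, and none passed the test. The fourth locus had 33, 42, 151, 85 and 102 counts in the control arm and 2, 72, 103, 82 and 138 in the ultrasonicated arm, with log2 fold changes of 1.71 to 2.44 (SE 1.22 to 1.24) against 0 h. None of these passed, but without the control library of 0 h the edgeR adjusted p was 0.0380 at 48 h (up to 0.450 over the alternatives), 0.0375 at 1 week (up to 0.607) and 0.0417 after 4 weeks (up to 0.549). The array as a whole stood at 2.16, 2.55, 4.30, 1.94 and 1.42 CPM in the control libraries and at 0.799, 2.44, 2.62, 2.38 and 3.26 CPM in the ultrasonicated ones. It was highest at 48 h in the control arm and at 4 weeks in the ultrasonicated arm, and the ultrasonicated library at 0 h was the lowest of all.

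A further snoZ103 locus lies beside a snoR1 locus on the reverse strand of chromosome 12 (38656490 to 38657253). The snoZ103 locus, ENSRNA049461146, had 3, 13, 35, 12 and 22 counts in the control arm and 0, 28, 33, 9 and 75 in the ultrasonicated arm. Both arms were lowest at 0 h. At 4 weeks the log2 fold change was 4.28 (SE 1.76, unadjusted p = 0.0417, edgeR adjusted p = 0.163). The snoR1 locus, ENSRNA049461136, is 557 bp away and had 23, 0, 62, 33 and 52 counts in the control arm and 0, 6, 22, 17 and 58 in the ultrasonicated arm. The second snoR1 locus, ENSRNA049460690 on chromosome 2, had 158 counts and was not tested. With 431 counts, snoR1 was the family with the third highest sum.

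SNORD24, the C/D box family of U24, which guides methylation of the large ribosomal RNA in yeast and human, had 365 counts. Its tested locus, ENSRNA049461495 (chromosome 3, 52538883 to 52538974, reverse strand), had 12, 47, 49, 56 and 13 counts in the control arm. It had 0, 58, 37, 34 and 11 counts in the ultrasonicated arm. In both arms the level was high from 24 h to 1 week and low at 0 h and 4 weeks. The log2 fold changes were 3.32 (SE 1.63, edgeR adjusted p = 0.189) at 24 h, 2.60 (SE 1.59, adjusted p = 0.284) at 48 h and 2.79 (SE 1.58, adjusted p = 0.232) at 1 week, and none passed. Without the control library of 0 h, which leaves only the ultrasonicated one at 0 counts, the edgeR adjusted p was 0.0491 at 24 h (0.0491 to 0.433 over the alternatives) and 0.0488 at 1 week (0.0488 to 0.474).

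The tested snoR77Y locus was the clearest case of absence at 0 h. ENSRNA049453249, on chromosome 7 at 45088394 to 45088475, had no count in either library of 0 h, then 18, 17, 11 and 18 counts in the control arm and 14, 7, 19 and 11 in the ultrasonicated arm. All 8 later libraries had counts, and the locus entered the tested set through them alone. Each library of 0 h was set to a floor of 3 counts. Against it the mean level was 4.46-fold higher at 24 h, 2.45-fold at 48 h, 3.64-fold at 1 week and 3.23-fold at 4 weeks. These folds leave out counting error at the later times. With it, the lower limits at these times were 4.155, 2.57, 1.98 and 3.28 in the control arm. In the ultrasonicated arm they were 2.44, 0.949, 3.16 and 1.48, so the rise at 48 h was not beyond counting error there. The edgeR adjusted p was 0.0740, 0.104, 0.0719 and 0.120 at these times, so the locus missed the threshold in each; DESeq2 gave an adjusted p of 0.0429 at 24 h and 0.0483 at 1 week, where the alternatives reached 0.211 and 0.212.

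The genes snoU36a and snoZ223 stand next to each other in the same order of transcription at 2 places in the genome. On chromosome 10 (4150735 to 4151121, forward strand) they are followed by snoR117, which had no count, and the group held 376 counts. On chromosome 7 (48508351 to 48508559, reverse strand) the pair is 28 bp apart and held 50 counts. The chromosome 10 snoU36a locus, ENSRNA049453513, had 7, 24, 30, 25 and 16 counts in the control arm and 5, 2, 9, 16 and 40 in the ultrasonicated arm. Its neighbour snoZ223, ENSRNA049453455, 41 bp away, had 5, 20, 29, 32 and 24 counts in the control arm and 5, 8, 5, 20 and 54 in the ultrasonicated arm. The pair was alike in part: low at 0 h in both arms, higher from 24 h in the control arm, and highest at 4 weeks in the ultrasonicated arm. At 24 h in the ultrasonicated arm, snoU36a was at 0.295 times its 0 h level (0.0281 to 1.8) and snoZ223 at 1.18 times (0.340 to 4.58). Both intervals hold 1. At so short a distance the counts of both may include the same fragments.

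The remaining families had few counts. The 3 snoZ105 loci, in a row on chromosome 4, had 250 counts, and the tested one, ENSRNA049461298, had 10, 13, 44, 16 and 12 counts in the control arm and 9, 18, 36, 30 and 8 in the ultrasonicated arm, highest at 48 h in both. The tested snoR8a locus, ENSRNA049453153 on chromosome 5, had 8, 19, 27, 46 and 0 counts in the control arm and 0, 23, 19, 7 and 7 in the ultrasonicated arm. snoZ159 had 21 counts over 3 loci and SNORD36 had 11 over 3 loci in a row. The 1 snoR117 locus and the 2 loci of snosnR60_Z15 had none.

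snoRNA loci were often in groups. With neighbours counted as grouped when at most 3000 bp apart, 30 of the 82 loci formed 11 groups; these held 21 of the 34 loci of other families and 9 of the 48 Plant_U3 loci. No snoRNA locus overlapped a gene model on its own strand, and 1 overlapped a gene model on the opposite strand, a snosnR60_Z15 locus with no count. The median distance to the nearest gene model was 2867.5 bp, and 21 loci lay within 1000 bp of a gene model. Loci inside gene models may be among the 169 features without a class name.

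Of the 9 gene models nearest the 12 leading loci, 7 were tested, and they did not move as those loci did in every case. PGSC0003DMG400018239 lies 4460 bp from the leading Plant_U3 locus on the opposite strand and fell at 24 h as that locus did (log2 fold change -1.74, edgeR adjusted p = 0.00413). PGSC0003DMG400018184 ends 441 bp upstream of the chromosome 3 Plant_U3 locus on the same strand and fell at 24 h (log2 fold change -1.004, edgeR adjusted p = 0.0318), in the libraries in which that Plant_U3 locus had its highest counts. Beside the snoZ103 array, PGSC0003DMG400029291 rose at 24 h (log2 fold change 1.24, edgeR adjusted p = 0.0168) and PGSC0003DMG400029290 fell (-0.99, edgeR adjusted p = 0.0177). The other tested neighbours did not pass at 24 h, where 19.9% of all features passed. The gene models carry no description in the sources used here.

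Set against all features, few snoRNA loci passed a test over time. By edgeR, 1 of 18 tested snoRNA loci passed over all times together, where 28.0% of all features did. At 24 h it was again 1 of 18, a fall, where 19.9% of features passed, 9.46% rising and 10.4% falling. No snoRNA locus passed at 48 h, where 20.5% of features did (9.93% higher, 10.5% lower). None passed at 1 week, where 24.7% did (12.5% higher, 12.2% lower), or after 4 weeks, where 11.7% did (3.56% higher, 8.14% lower). Unadjusted p-values under 0.05 numbered 2, 1 and 2 at those times by edgeR, and 1, 1 and 0 loci passed by DESeq2 and 0 in each by limma-voom. Standard errors against 0 h were above 1 on the log2 scale at every tested locus of the other families except the fifth of the snoZ103 array, so only large changes could have passed. The fourth snoZ103 locus, with 810 counts in all, had standard errors of 1.22 to 1.24, and how far depth and scatter between libraries each set these errors was not tested.

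At 24 h, 12 of the 18 tested loci were higher than at 0 h in both arms and 2 were lower in both, against 36.4% and 33.8% of all tested features. For 48 h the numbers were 13 and 2 (38.5% and 33.7%), for 1 week 9 and 2 (37.6% and 32.2%), and for 4 weeks 8 and 1 (37.6% and 29.3%). The median log2 fold change of the 18 was 1.23, 1.45, 0.91 and 0.95 at the 4 times, against 0.01, 0.04, 0.06 and 0.10 over all tested features. With the snoR77Y locus set against the count floor at 0 h, the median at 48 h was 1.40, and at the other times the median did not move. Loci enter the 18 only through libraries in which they are high, so these numbers are descriptive and carry no test. They also share the 0 h libraries, which had the lowest TMM factors. Scaled by total counts, 12, 15, 9 and 9 of the 18 were higher in both arms, against 45.9%, 54.1%, 49.8% and 58.4% of all tested features. The share of the 18 was then near that of all features at 1 week and below it at 4 weeks. With that scaling the median over all features stood at 0.35, 0.53, 0.46 and 0.61, and that of the 18 at 1.51, 1.90, 1.25 and 1.37.

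Of all 34 loci of the other families, tested or not, 13 (38.2%) were higher at 24 h than at 0 h in both arms and 0 were lower in both. The numbers were 17 (50.0%) and 0 for 48 h, 10 (29.4%) and 0 for 1 week, and 10 (29.4%) and 2 for 4 weeks. The shares that were higher lay near or below those of all tested features (36.4%, 38.5%, 37.6% and 37.6%) except for 48 h. The bases differ, since 10 to 15 of the 34 loci had no count in the libraries compared, against at most 30 of the 24421 tested features. Of the tested features, 33.8%, 33.7%, 32.2% and 29.3% were lower in both arms. Of the 48 Plant_U3 loci, 7, 7, 1 and 1 were higher in both arms at the 4 times and 3, 3, 3 and 1 lower in both. The summed level of the other families was 2.83, 4.23, 6.42, 3.65 and 2.60 CPM in the control libraries from 0 h to 4 weeks. In the ultrasonicated libraries it was 1.19, 3.89, 4.11, 3.83 and 5.002 CPM. In the ultrasonicated arm every later level was above that at 0 h, by 3.21 to 4.19 times. In the control arm the ratio was 2.27 (exact 95% interval 2.01 to 2.58) at 48 h and 0.920 (0.792 to 1.07) at 4 weeks, when the level was back at that of 0 h within counting error.

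**Figure D4:**
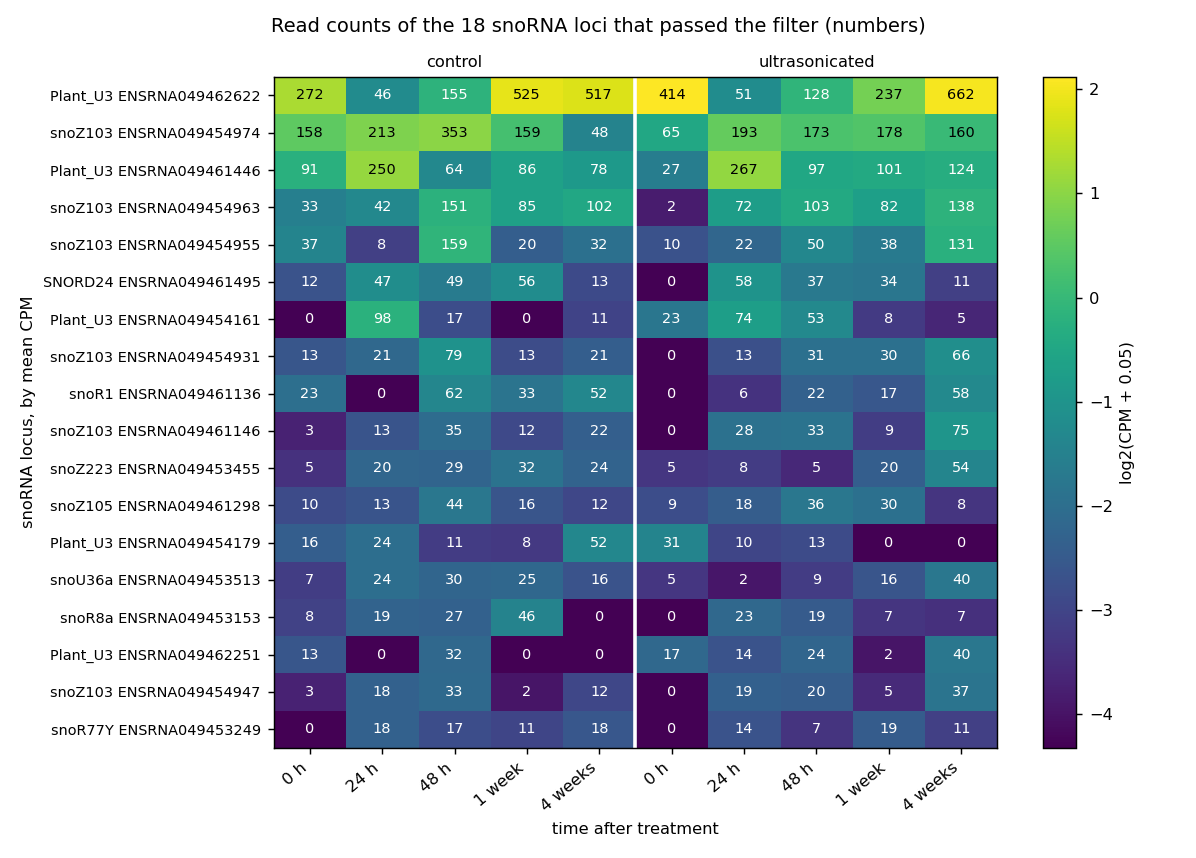
Counts (numbers) of the 18 tested snoRNA loci (rows, ordered by mean CPM) in the 10 libraries (columns), coloured by log2 of CPM plus 0.05. The top Plant_U3 row is darkest at 24 h in both arms, the third row is brightest there, and many rows of other families are darkest in the ultrasonicated column at 0 h.

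The effect of ultrasound common to all times was tested with time as a block. No snoRNA locus passed, the smallest edgeR adjusted p being 0.9986, with 0 loci at an unadjusted p under 0.05 and 0 passing by DESeq2 or limma-voom. The background was 0.0% by edgeR, since no feature in the table passed. The median log2 difference of the 18 loci, ultrasonicated against control, was -0.22, against 0.02 over all tested features.

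At each single time the arms are 1 library each, so differences are described by exact 95% intervals that cover counting error only and compare those libraries. A locus counted as apart when its whole interval lay beyond 2-fold. Of the 18 tested loci, 5 were apart at 0 h, 1 higher and 4 lower in the ultrasonicated library, against a background of 22.8% of features (11.6% higher, 11.2% lower). The 24 h libraries had 1 locus higher and 1 lower (12.4%; 5.2% and 7.16%). Those of 48 h had 1 higher (7.68%; 2.64% and 5.04%) and those of 1 week 1 lower (17.1%; 6.74% and 10.4%). After 4 weeks 3 were higher and 1 lower (12.3%; 5.95% and 6.38%). These shares stand on so few loci that they cannot be set apart from the background.

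At 0 h the 4 lower loci were all of other families. The fourth locus of the snoZ103 array had 33 counts in the control library and 2 in the ultrasonicated one (ratio 0.0712, interval 0.00828 to 0.278). Its second locus, ENSRNA049454931, had 13 and 0 counts (at least 2.59-fold lower by its interval). The chromosome 12 snoR1 locus had 23 and 0 (at least 4.89-fold lower), and the SNORD24 locus 12 and 0 (at least 2.365-fold lower). The 1 higher locus was the middle Plant_U3 locus of chromosome 6. It had 0 counts in the control library and 23 in the ultrasonicated one (at least 6.75-fold higher).

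At 24 h the chromosome 10 snoU36a locus was lower in the ultrasonicated library (24 and 2 counts, ratio 0.0763, 0.00874 to 0.307). The Plant_U3 locus ENSRNA049462251 was higher (0 and 14 counts, at least 3.04-fold by its interval). At 48 h the middle chromosome 6 Plant_U3 locus was higher (17 and 53 counts, ratio 3.87, 2.21 to 7.13). At 1 week the snoR8a locus was lower (46 and 7 counts, ratio 0.153, 0.0584 to 0.342). Of the tested loci, 2 were apart at more than 1 time, and both are Plant_U3 loci.

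At 4 weeks the third and the fifth snoZ103 loci of the array were higher in the ultrasonicated library. The third, ENSRNA049454955, had 32 counts in the control and 131 in the ultrasonicated library (ratio 3.81, 2.57 to 5.80), and the fifth had 48 and 160 (3.10, 2.23 to 4.38). The Plant_U3 locus ENSRNA049462251 had 0 and 40 counts (at least 9.635-fold higher by its interval). The Plant_U3 locus ENSRNA049454179 had 52 and 0 (at least 14.6-fold lower). Plant_U3 copies thus lay apart in opposite directions at the same time.

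Summed by class, Plant_U3 and the other families differed in direction between the arms at 0 h and 48 h. The Plant_U3 level of the ultrasonicated library at 0 h was 1.60 times that of the control (1.40 to 1.82), and the level of the other families 0.422 times (0.338 to 0.524). At 48 h the ratios were 1.43 (1.24 to 1.66) and 0.640 (0.579 to 0.706). At 1 week they were 0.569 (0.499 to 0.647) and 1.05 (0.928 to 1.18), the second within counting error of 1 and at 0.981 when scaled by total counts. At 4 weeks both were above 1, 1.16 (1.05 to 1.29) and 1.92 (1.70 to 2.17), and at 24 h they were 0.836 (0.739 to 0.945) and 0.919 (0.811 to 1.04).

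The Plant_U3 ratios rested on the leading locus at 0 h, 1 week and 4 weeks. Without it they were 1.18 (0.909 to 1.52), 1.02 (0.798 to 1.31) and 1.065 (0.8605 to 1.32), each with 1 inside the interval. At 1 week the leading locus alone had a ratio of 0.455 (0.389 to 0.532). At 0 h, spliceosomal snRNA loci, which serve splicing and were taken as a class for comparison, were also lower in the ultrasonicated library, at 7.41 against 13.97 CPM (ratio 0.531, 0.485 to 0.580). At the other times their ratio lay between 0.894 and 1.12. Signal recognition particle RNA loci had a ratio of 1.22 (1.13 to 1.31) at 0 h with TMM scaling. Without the TMM factors, 0.688 in the ultrasonicated and 0.885 in the control library, this ratio would be lower, and its side of 1 depends on them. Scaling multiplies the ratios of all classes alike, so the gap between this class and the spliceosomal one does not depend on it. The ratio of the signal recognition particle class varied widely between times, at 0.03935, 0.940, 0.855 and 0.470 from 24 h to 4 weeks. The ultrasonicated library at 0 h had the lowest TMM factor, so the ratios of that time depend on the scaling. Scaled by total counts, the ratio at 0 h was 1.24 (1.09 to 1.41) for Plant_U3 and 0.328 (0.263 to 0.407) for the other families. Each kept its side of 1.

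**Figure D5:**
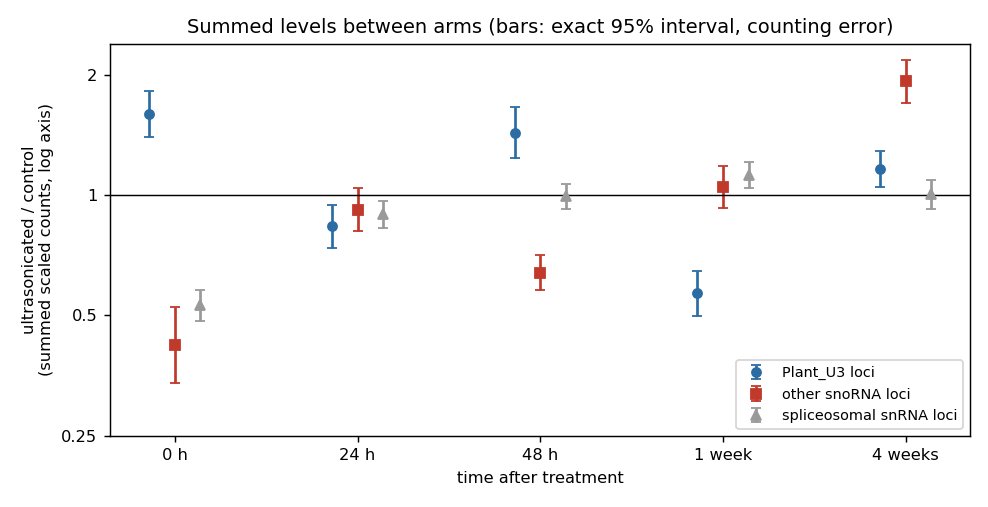
The ratio of summed scaled counts, ultrasonicated over control (y axis, log scale), at each time (x axis) for Plant_U3 loci, other snoRNA loci and spliceosomal snRNA loci; bars are exact 95% intervals of counting error, with 1 library per arm. Plant_U3 lies above 1 at 0 h and 48 h where the other families lie below it, and the other families reach 1.92 at 4 weeks.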

How the data were processed

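RNA was sequenced from 10 pooled libraries. The authors deposited raw, whole-number counts for each feature. Their reads passed through FastQC 0.11.5, HISAT2 2.1.0 and Trim Galore 0.5.0, named with no order in the submitters' processing notes. How reads were counted (program, strand, multiple mapping) and on which genome build is not given in the sources used here. No sequence of these loci was printed because no genome of the table's build was used here.

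Tests used edgeR 4.0.16 (R 4.3.3): filterByExpr on arm (24421 features kept), TMM scaling, and quasi-likelihood F-tests in a model with time and arm (4 residual degrees of freedom), with Benjamini-Hochberg adjustment at 0.05. The arms stand in for replicates in the time tests and the times in the ultrasound test, so a p-value reflects how far pooled libraries scatter, not plants. Ratios of scaled counts carry exact 95% Clopper-Pearson intervals, which cover counting error only, and a library at 0 was set to a floor of 3 counts for a bound. Standard errors were approximated from the log2 fold change and the root of its F statistic.

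Named loci were the 12 of highest mean CPM, those passing a test or, failing that, the 2 with the smallest p, up to 4 per direction beyond 2-fold at each time, and members of the 8 leading families; other loci named beside them were chosen after their values were seen. A list of 19 snoRNP protein names matched 0 genes by symbol, so none is described. Members and lists were chosen with earlier results of these data known. Alternatives were other scalings (total counts, median ratio), other filters (none, or CPM of at least 1 in 2 libraries), DESeq2 1.42.0, limma-voom (limma 3.58.1), ribosomal RNA features left out, and each library left out in turn.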

Additional observations from a re-analysis of the deposited data

How the results depend on the processing

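The count of snoRNA loci passing at 24 h, 48 h and 1 week was 2, 1 and 1 by DESeq2, against 1, 0 and 0 by edgeR; the causes were not tested. Leaving out each library in turn gave 0 to 1 loci over all times, 0 to 2 at 24 h, 0 to 2 at 48 h, 0 to 2 at 1 week and 0 to 1 at 4 weeks, the highest count at each single time being that without the control library of 0 h; the ultrasound count was 0 in each case. Loci apart between arms numbered 9 at 0 h, 3 at 48 h and 4 at 1 week when 1.5-fold was the limit, 4 at 48 h and 5 at 1 week when all loci with a count were taken, and 2 at 1 week with total counts as the scale. Summed Plant_U3 ratios were 1.239 at 0 h by total counts, and 1.175 at 0 h, 1.759 at 48 h and 1.023 at 1 week without the leading locus, the last on the other side of 1; the other families had 0.328 at 0 h by total counts. Leaving out loci that overlap a gene model on the same strand removed 0 loci. The remaining 136 alternative values of these counts and sums stayed within 1.5 times or within counting error of the reported ones. The ultrasound test already sets the arms against each other within each time, and no pairing by replicate number could be added, since the labels carry none. Depth limits what can be seen: the floor of 3 counts in a library, used in place of a count of 0, corresponds to 0.0165 to 0.0312 CPM.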
